A study of Mus musculus with 33 samples.

Results

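H3K27me3 domains of wild type (WT) and Uhrf1 knockout (KO) embryoid bodies at week 3 were compared as 2 deposited lists, 1 library for each genotype. The WT list held 9488 domains and the KO list 3722, together 13210 of the 318036 regions in the 25 lists of the series. All domains of the 2 samples labelled H3K27me3 at week 3 were taken, and a domain was called shared when it overlapped a domain of the other genotype by at least 1 bp, and otherwise WT-only or KO-only. Both groups were E14 mouse embryonic stem cells differentiated as embryoid bodies (EBs), which are aggregates started in hanging drops that form tissues of all germ layers. They were immunoprecipitated with the same antibody and differed by label in genotype alone. The labels name no promoter or Cre for the deletion and no clone, and the lists cannot show whether the Uhrf1 gene was deleted in the KO library. Lists of mESC, of EBs at weeks 1 and 2, and of H3K4me3, H3K9me3 and Uhrf1 from the same cell lines served for comparison. Since each genotype had 1 library, the variation between replicates is unknown and no p-value is given. Intervals are 95% intervals, Wilson for a share and Newcombe for a difference. They cover counting error only, and because neighbouring promoters often lie in 1 domain they are too narrow.

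H3K27me3 is deposited by Polycomb repressive complex 2 and marks genes that are silent but can be activated later, many of them regulators of development. It often occupies CpG-rich promoters together with H3K4me3, the mark of open promoters, and in differentiated cells it can spread over broad regions between genes. Uhrf1 binds hemimethylated DNA and histone H3 and recruits the maintenance methyltransferase Dnmt1, so that cells without it lose DNA methylation. The study asked whether differentiating cells keep their histone marks at developmental genes without Uhrf1.

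To show the kind of promoter in each class, the sequence from 250 bp before to 50 bp after the annotated start is given for 2 kept, 2 lost and 2 gained genes, the first of each class in the gene lists used here. Sequences are from the NCBIM37 (mm9) genome, 5′ to 3′ on the strand of the gene, with CG dinucleotides in capitals. CG reads the same on both strands, and 95.1% of 22367 promoters of this length held at least 1, with a median of 11. The start is the outermost 5′ end of the annotated gene, so for a gene with several starts, as Tubb3 and Pcgf5 may have, the stretch may not be the main promoter. The kept promoters are of Msx2 (chr13:53568394-53568693, minus strand), a homeobox factor of neural crest and limb, and Hand2 (chr8:59799530-59799829, plus strand), a factor of the developing heart.
Msx2: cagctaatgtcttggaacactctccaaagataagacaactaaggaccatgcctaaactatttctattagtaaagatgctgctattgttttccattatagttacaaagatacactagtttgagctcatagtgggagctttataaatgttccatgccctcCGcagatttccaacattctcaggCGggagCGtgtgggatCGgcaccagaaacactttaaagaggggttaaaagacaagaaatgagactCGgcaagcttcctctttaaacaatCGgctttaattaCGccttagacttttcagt
Hand2: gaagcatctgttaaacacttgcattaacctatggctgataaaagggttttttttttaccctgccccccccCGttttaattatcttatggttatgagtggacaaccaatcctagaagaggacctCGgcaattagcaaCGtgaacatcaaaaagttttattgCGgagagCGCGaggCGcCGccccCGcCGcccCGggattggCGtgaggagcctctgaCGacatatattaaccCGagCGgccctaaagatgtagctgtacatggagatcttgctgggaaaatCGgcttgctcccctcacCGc
The lost promoters are of Ednra (chr8:80248314-80248613, minus strand), the endothelin receptor of neural crest and smooth muscle, and Tubb3 (chr8:125935074-125935373, plus strand), a tubulin of neurons.
Ednra: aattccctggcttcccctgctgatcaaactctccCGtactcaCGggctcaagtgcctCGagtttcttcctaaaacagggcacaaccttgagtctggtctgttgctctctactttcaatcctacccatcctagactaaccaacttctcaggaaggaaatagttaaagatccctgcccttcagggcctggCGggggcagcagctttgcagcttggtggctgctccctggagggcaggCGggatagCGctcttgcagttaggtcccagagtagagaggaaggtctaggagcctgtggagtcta
Tubb3: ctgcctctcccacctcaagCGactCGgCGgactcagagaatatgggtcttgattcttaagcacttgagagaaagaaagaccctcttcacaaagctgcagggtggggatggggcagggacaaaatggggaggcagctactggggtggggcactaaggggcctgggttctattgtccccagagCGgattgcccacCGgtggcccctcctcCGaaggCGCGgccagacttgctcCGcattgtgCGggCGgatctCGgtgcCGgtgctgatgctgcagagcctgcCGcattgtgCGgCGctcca
The gained promoters are of Pcgf5 (chr19:36453307-36453606, plus strand), a Polycomb subunit, and D1Pas1 (chr1:188791045-188791344, plus strand), a helicase gene of the male germ line.
Pcgf5: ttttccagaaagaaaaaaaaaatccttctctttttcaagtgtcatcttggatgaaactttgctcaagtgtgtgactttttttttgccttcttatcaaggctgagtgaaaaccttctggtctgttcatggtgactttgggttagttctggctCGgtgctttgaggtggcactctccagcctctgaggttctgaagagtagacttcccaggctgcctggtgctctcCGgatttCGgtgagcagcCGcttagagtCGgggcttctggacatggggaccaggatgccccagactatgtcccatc
D1Pas1: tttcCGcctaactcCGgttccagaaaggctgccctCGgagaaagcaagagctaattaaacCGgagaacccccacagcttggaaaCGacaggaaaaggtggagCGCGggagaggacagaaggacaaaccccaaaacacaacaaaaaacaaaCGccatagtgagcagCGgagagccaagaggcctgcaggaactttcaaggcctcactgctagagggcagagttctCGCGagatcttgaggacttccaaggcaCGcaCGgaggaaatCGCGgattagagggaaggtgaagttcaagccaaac
The 6 promoters held 7, 17, 6, 16, 5 and 15 CG dinucleotides in the order printed. Each pair thus held 1 promoter above and 1 below the median of 11.

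The tissue was checked by H3K4me3 within 2 kb of the starts of marker genes. All 5 genes expressed in every cell type (Actb, Gapdh, Ppia, Hprt and Tbp) carried it in both genotypes, and none carried H3K27me3. H3K4me3 was found at 3 of 3 matched neural markers (Pax6, Tubb3 and Nes) in both genotypes and at 4 endoderm markers of 5 in WT and 5 in KO. Of 5 cardiac and muscle markers, 2 carried it in WT (Nkx2-5 and Tbx5) and 1 in KO (Tbx5), while Tnnt2, Myh6 and Actc1, genes of contracting muscle, had none in either. The pluripotency markers Pou5f1, Nanog, Zfp42, Dppa5a and Tdgf1 carried H3K4me3 in both, 5 of 6 as in mESC. Ttr, an endoderm gene, and Tbx5 carried it at week 3 in both genotypes and in mESC of neither. Most other markers of differentiated cells with H3K4me3 at week 3 in WT had it in WT mESC already. In mESC it was present at 3 neural and 3 endoderm markers in WT and at 2 and 2 in KO, and at Nkx2-5 in WT alone. At most markers H3K4me3 thus did not tell WT EBs from WT mESC. Neither cell composition nor the number of cells with the mark could be read from the lists. A lower coverage cannot tell fewer cells with the mark from less of the mark per cell.

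H3K27me3 covered less of the genome in Uhrf1 KO EBs. WT domains spanned 791.4 Mb, or 30.9% of the known bases, and KO domains 419.9 Mb, or 16.4%, a log2 ratio of KO to WT of -0.91. Of the marked bases, 313.6 Mb were shared, 477.8 Mb were marked in WT alone and 106.3 Mb in KO alone, so that 39.6% of WT bases and 74.7% of KO bases lay in the other list. By number, 3572 WT domains were shared (37.6%, 36.7 to 38.6) and 5916 were WT-only, whereas 3276 KO domains were shared (88.0%, 86.9 to 89.0) and 446 were KO-only. Most KO domains thus lay on WT domains, and most WT domains had no KO counterpart. According to the study's sequencing summary the WT library had more mapped reads than the KO library, and the part of depth in the shorter KO list was not tested. When the WT list was shortened to the 3722 domains with the highest mean read count, 42.2% of KO domains overlapped a WT domain. WT domains of high count were short, so the number and the kind of domains changed together.

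Chromosomes 8 and 11 stood apart in both lists. On the other 17 autosomes WT domains covered 21.7% to 36.4% of known bases and KO domains 10.1% to 19.7%. On chromosome 8 the coverage was 78.6% in WT and 51.4% in KO, and on chromosome 11 it was 38.9% in WT and 42.4% in KO. Chromosome 11 was the only autosome on which the KO list covered more than the WT list. At chromosome 8, 55.4% of WT domains were shared and 99.6% of the 282 KO domains lay on a WT domain, and at chromosome 11 77.3% of WT domains were shared, against 27.6% to 41.2% on the other autosomes. These 2 chromosomes make up 9.52% of the genome and held 18.2% of WT and 27.3% of KO covered length. The X chromosome was almost empty, with 46 WT and 14 KO domains. H3K4me3 at week 3 was also denser on chromosomes 8 and 11. It covered chromosome 8 by 2.19 times the share of the other autosomes in WT and 1.66 times in KO, and chromosome 11 by 1.87 and 2.42 times. The number of copies of these chromosomes was not analysed here, and its part in these values was not tested. Without them WT domains spanned 647.0 Mb and KO domains 305.4 Mb, and the shared share was 34.9% of WT and 87.0% of KO domains.

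**Figure D1:**
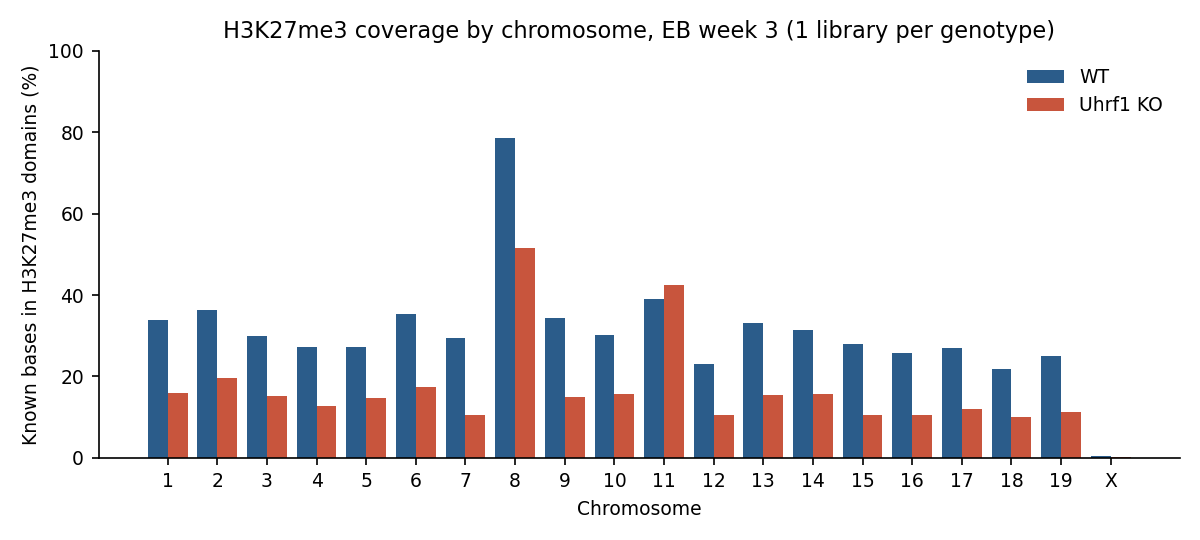
Share of known bases (%) inside H3K27me3 domains for each chromosome in WT (blue) and Uhrf1 KO (red) EBs at week 3, 1 library each. Chromosome 8 reached 78.6% in WT and 51.4% in KO, chromosome 11 42.4% in KO, and X was below 1% in both.

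WT domains that were long were found again in KO far more often than short ones. Shared WT domains had a median length of 81.0 kb (quartiles 39.6 and 156.6) and WT-only domains one of 36.0 kb (19.8 and 63.0). Over 10 equal groups by length, the shared share rose from 16.9% (14.6 to 19.4) among the shortest, up to 12.6 kb, to 81.3% (78.7 to 83.7) among the longest, above 174.6 kb. A long domain has more bases that could meet a KO domain, but its bases were also shared more often, 53.5% in the longest group against 14.8% in the shortest. The same order held in KO, where shared domains had a median of 80.1 kb and KO-only domains 39.6 kb.

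The mean read count, given for each domain as the mean over its 1800 bp bins, separated the classes less. Its median was 8.71 per bin in shared and 8.52 in WT-only domains, and 5.09 in shared and 5.41 in KO-only domains, so that KO-only domains were short but ranked at the 60.1st percentile of their list. Counts were read within a list only, since the study states a scaling of read counts to mapped reads in general, and not whether it covers these values. Over 10 equal groups by count, 33.6% of WT domains were shared in the lowest and 48.3% in the highest. The highest group had a median length of 12.6 kb and the lowest one of 102.6 kb, so count and length ran against each other. Among domains of similar length the count mattered more. Of domains between 59.4 and 111.6 kb, 85.8% (81.9 to 88.9) of the 379 with the highest counts were shared and 24.2% (20.2 to 28.8) of the 380 with the lowest, a difference of 61.5 points (55.6 to 66.7). In the shortest of 5 length groups this difference was 13.5 points (7.53 to 19.4). Counted in bases, 19.98% of the lowest and 76.4% of the highest count group lay in a KO domain.

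**Figure D2:**
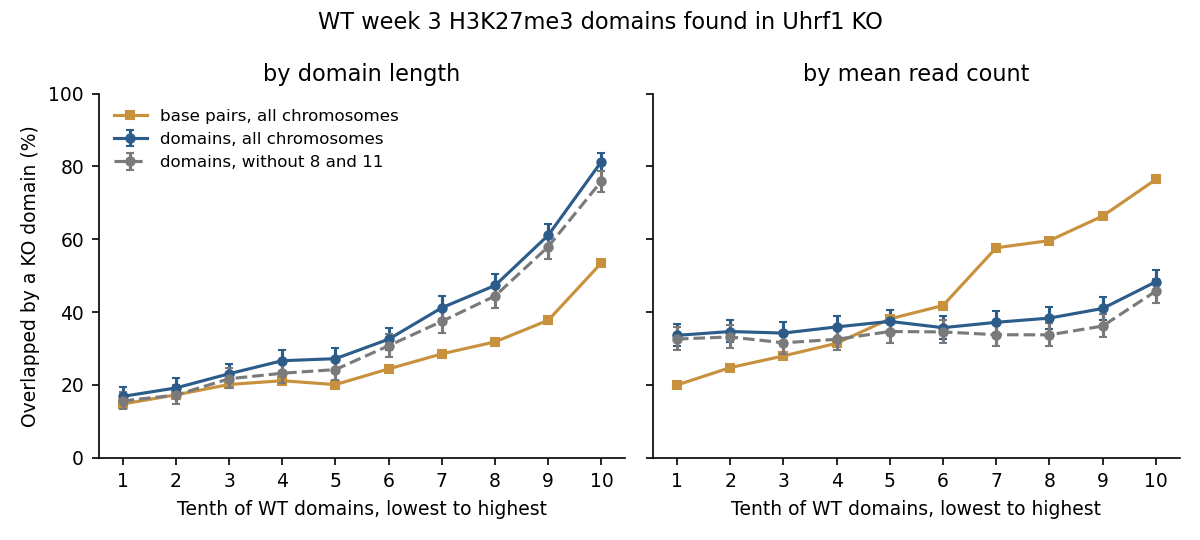
Share (%) of WT week 3 H3K27me3 domains overlapped by a KO domain, for 10 equal groups of WT domains ordered by length (left) or mean read count (right), with 95% Wilson intervals. Blue shows all chromosomes, grey domains outside chromosomes 8 and 11, and yellow the share of base pairs. By length the share of domains climbs from 16.9% to 81.3%, by count only from 33.6% to 48.3%, while the share of bases by count climbs from 19.98% to 76.4%.

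In pairs in which 1 WT domain met 1 KO domain and no other, the KO domain was more often the smaller. In these 2269 pairs the median length was 79.2 kb in WT and 63.0 kb in KO. Over all shared domains the medians were close, 81.0 kb in WT and 80.1 kb in KO. The KO domain lay inside the WT domain in 867 pairs (38.2%), the WT domain inside the KO domain in 445 (19.6%), both had the same ends in 93 (4.10%), and the others were staggered. Pairs in which KO lay inside WT had median lengths of 124.2 kb in WT and 52.2 kb in KO, and pairs nested the other way 34.2 kb in WT and 77.4 kb in KO. Both shrinkage and extension were therefore present. Length and mean count were related between the genotypes over these pairs (Spearman's rho 0.54 and 0.50 across pairs, which share their chromosomes and base composition). A split into several pieces was uncommon: 198 shared WT domains (5.54%) met 2 KO domains and 47 (1.32%) met 3 or more. The reverse was more frequent, with 418 shared KO domains (12.8%) that met 2 WT domains and 96 (2.93%) that met 3 or more.

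The longest shared WT domains all lay on chromosome 8 and were broken up in KO. The longest, of 3918.6 kb at chr8:102828601-106747200, holds Cdh11 and Cdh5, genes of cadherin adhesion molecules, and met 9 KO domains that covered 81.2% of it. The next, of 3583.8 kb at chr8:49591801-53175600 over Odz3, a teneurin of neurons, was covered to 79.2% by 9 KO domains. The shared domains with the highest mean counts were single features of 1.8 to 3.6 kb, led by 163.9 reads per bin inside Vps45 at chr3:95848201-95850000. The longest WT-only domain, of 714.6 kb at chr4:103057201-103771800, held the start of Dab1, the reelin adaptor of migrating neurons, with 7.78 reads per bin. The other long WT-only domains, of 549.0 kb on chromosome 2 and 541.8 kb on chromosome 7, overlapped no coding gene. The WT-only domain with the highest count was a single bin in Akap9, with 62.7 reads. KO-only domains were smaller, the longest 250.2 kb, and among the 3 longest only that of 246.6 kb at chr3:118859401-119106000 met a coding gene, Dpyd, which encodes an enzyme of pyrimidine breakdown. The KO-only domain with the highest count among those in genes was a single bin in Litaf, with 31.3 reads.

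Shared domains held more genes than domains of either genotype alone. A coding start lay in 54.4% of shared WT domains and in 24.4% of WT-only domains, a difference of 30.03 points (28.1 to 32.0), and in 54.8% of shared and 15.2% of KO-only domains in the KO list. Since shared domains were longer, domains with and without a start were compared within 5 equal groups of length. Those with a start were shared more often in each group, by 4.58 points (0.371 to 9.18) in the shortest and by 20.7 to 29.0 points in the others. In bins, shared bases held 10.1 starts per Mb, WT-only bases 6.01, KO-only bases 6.18 and unmarked bases 9.44. Shared bases were also richer in G and C (42.4%) and in CpG (8.94 per kb) than WT-only bases (41.0% and 7.27). Gene bodies covered 30.1% of shared, 28.0% of WT-only and 31.4% of KO-only bases, against 44.1% of bases marked in neither.

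At promoters, H3K27me3 was lost from about as many genes as kept it, and gains were rare. A promoter was called marked when a domain lay within 5 kb of the annotated start. Of 22367 coding genes, 7429 were marked in WT (33.2%) and 4355 in KO (19.5%). Of the WT-marked promoters 3710 were kept (49.9%) and 3719 lost (50.1%), and of the 14938 promoters without the mark in WT 645 gained it (4.32%). Without chromosomes 8 and 11, 46.0% were kept and 3.55% gained. Kept promoters lay in WT domains of 133.2 kb in the median and lost promoters in domains of 59.4 kb, with median counts of 9.39 and 8.61 per bin.

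Most lost promoters lay in a WT domain without any KO overlap. Most gained promoters lay in a KO domain that overlapped a WT domain elsewhere. Of the lost promoters, 2710 (72.9%, 71.4 to 74.3) lay in a WT domain that met no KO domain anywhere, with a median domain length of 41.4 kb, and 1009 in one that met a KO domain elsewhere. The nearest KO domain was 146.3 kb away in the median. Of the gained promoters, 509 (78.9%, 75.6 to 81.9) lay in a KO domain that overlapped a WT domain elsewhere, and 473 of 645 (73.3%) were within 50 kb of a WT domain. The median distance was 21.7 kb. Over the whole lists, 62.4% of WT domains were WT-only and 88.0% of KO domains were shared, counted by domain and not by promoter. By this count, overlap with WT was no more frequent at gained promoters than over all KO domains.

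In the lists used here, all WT-marked Hox, Pax, neural and endoderm factors kept the mark, while other lists of developmental factors had some losses. All 39 Hox genes, which set position along the body axis, were kept, in 4 WT domains with a median count at the 99.4th percentile of the WT list, where the median over all WT-marked promoters was 60.4. All 23 matched neural factors were kept. Their median count rank was 92.9 in the WT list and 76.7 in the KO list, where all marked promoters had 60.4 and 50.3. Pax6, a regulator of eye and forebrain, lay in a domain of 300.6 kb in WT and 302.4 kb in KO, Neurog1 in 307.8 and 421.2 kb and Neurog2 in 169.2 and 178.2 kb. All 9 Pax genes, 24 of 24 clustered protocadherins on chromosome 18 and 13 of 13 WT-marked endoderm factors were kept as well, among them Sox17, Foxa1, Foxa2 and Gata6. The last of these had a domain of 30.6 kb in both genotypes. Against 49.9% kept of all WT-marked promoters, these lists had no loss, but they were also long domains of high count, and members of a cluster share a domain, so that the number of independent regions is smaller than the number of genes. Without chromosomes 8 and 11, 29 of 29 Hox genes, 22 of 22 neural and 12 of 12 endoderm factors were kept, against 46.0% of all.

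**Figure D3:**
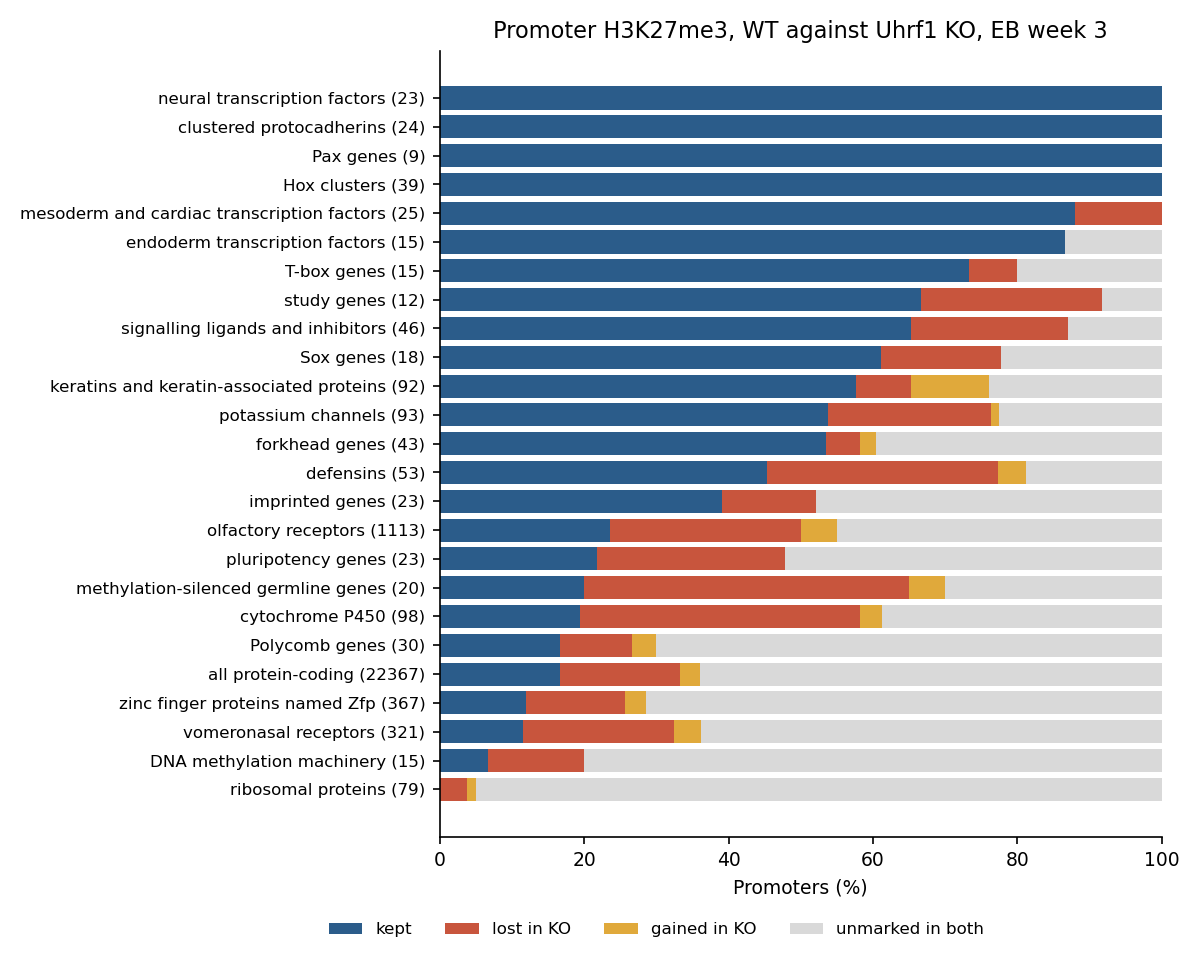
Share of promoters (%) in each gene list, with the number of matched genes in brackets, that kept H3K27me3 (blue), lost it in KO (red), gained it in KO (yellow) or were unmarked in both (grey). Hox, Pax, neural and protocadherin lists are blue throughout, and the bar of all 22367 coding genes has nearly equal blue and red parts of 3710 and 3719 genes.

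Factors of mesoderm and heart lost the mark at a few genes, where 50.1% of all WT-marked promoters lost it. Of 25, 22 were kept and 3 lost: Mesp1 and Mesp2, factors of early cardiac mesoderm that share a WT domain of 43.2 kb, and Mixl1, a factor of the primitive streak, in a domain of 30.6 kb. The kept genes included Gata4, with a domain of 100.8 kb in WT and 115.2 kb in KO, and Hand1, with 36.0 and 73.8 kb. The median count rank of the marked mesoderm and heart factors was 83.4 in the WT list and 58.3 in the KO list. Forkhead genes were kept at 23 of 25 marked promoters, with Foxa3 and Foxp2 lost and Foxn1 gained, and T-box genes at 11 of 12, with Tbx19 lost. Sox genes were kept at 11 of 14. Sox10, Sox11 and Sox3, factors of neural crest and neurons that were not in the neural list above, were the 3 that were lost.

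The study had singled out 12 genes from its data on mESC or EBs, so they are not independent evidence of a direction. Of them, 8 were kept, 3 lost and 1 unmarked in both. The study reported that muscle or heart genes lost H3K27me3 in KO EBs at promoters that also carried H3K4me3. The genes in question are Nkx2-5, Tbx5 and Wnt2b, and all were called kept here. The study's promoter classes rested on read enrichment over input around the start. Here a domain of each list within 5 kb of the start was enough for a kept call. Whether this accounts for the different calls was not tested. Tbx5, a factor of heart and forelimb, kept a domain of 500.4 kb at chr5:120063601-120564000 in WT and 493.2 kb at chr5:120072601-120565800 in KO. Nes, an intermediate filament of neural progenitors, kept 97.2 kb in WT and 93.6 kb in KO. These domains were nearly the same length in both libraries. Their count rank within a list was lower in KO, 62.3 against 94.5 for Tbx5 and 68.0 against 95.1 for Nes. It was also lower in KO for Otx2 (28.1 against 93.7), Nkx2-5, Wnt2b, Msx2 and Hand2, and higher for Neurod1 (76.1 against 52.6). A kept call thus means a domain in both lists and not an equal signal. Otx2, a forebrain factor, lay in 140.4 kb in WT and 374.4 kb in KO, Nkx2-5, a cardiac factor, in 61.2 and 102.6 kb, Wnt2b in 34.2 and 43.2 kb, and Msx2 in 486.0 and 507.6 kb. Hand2 went from 2046.6 to 606.6 kb and Neurod1, a factor of neuronal differentiation, from 183.6 to 59.4 kb. Among the kept genes both longer and shorter KO domains thus occurred. The lost genes were Ednra, in a WT domain of 900 kb at chr8:80121601-81021600, Tubb3, in 34.2 kb at chr8:125929801-125964000, and Sall1, a zinc finger factor of kidney and limb, in 1800 kb at chr8:91542601-93342600. All 3 lay on chromosome 8, as did Klf2, a pluripotency factor unmarked in both, and Hand2, which was kept. The promoters of Ednra, Tubb3 and Sall1 carried H3K4me3 in both genotypes, whereas Nkx2-5 and Wnt2b carried it in WT only.

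Signalling and pluripotency genes were mixed, beside 49.9% kept of all WT-marked promoters. Of all coding promoters, 63.9% were unmarked in both lists. Of 40 WT-marked ligands and inhibitors 30 were kept (75%), among them Wnt1 and Wnt3, and 10 lost, among them Wnt4, Wnt7b, Bmp2 and Bmp4. Of 23 matched pluripotency genes, 12 were unmarked in both, including Pou5f1 and Nanog, 5 were kept, including Sox2, Esrrb, Tbx3 and Prdm14, and 6 were lost, including Klf4, Dppa5a, Fgf4 and Lefty1. The WT domain at Klf4 lay within 5 kb of the start without covering it. Of 30 Polycomb genes 21 were unmarked in both, close to the 63.9% of all coding promoters. Bmi1, Pcgf1 and Cbx2 were among the 5 kept, Ezh2, which encodes the enzyme that places H3K27me3, Phf19 and Phc2 were lost, and Pcgf5 was gained. The WT domain of 18 kb at Ezh2 lay upstream of the gene and did not reach its start. Imprinted genes were kept at 9 of 12, with Igf2, Kcnq1, Cdkn1c and Ndn among them, and lost at Peg10, Sgce and Mest. Peg10 and Sgce shared a WT domain of 12.6 kb, which lay within 5 kb of both starts without covering them.

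Germline genes that DNA methylation normally silences were more often lost than kept. Of 13 WT-marked genes 4 were kept (30.8%, 12.7 to 57.6), namely Mael, Tdrd1, Mov10l1 and Tex101, and 9 were lost, among them Dazl and Ddx4, regulators of germ cells, and Sycp1, a protein of meiotic chromosomes. D1Pas1 gained a domain of 221.4 kb. The median WT count of the 13 was at the 46.3rd percentile, below that of all marked promoters, and the interval of the kept share includes the 49.9% of all. Of 15 genes of DNA methylation, 12 were unmarked in both, where 63.9% of all coding promoters were. Tet3 was kept, and Dnmt3b and Uhrf2, the relative of Uhrf1, were lost. The WT domains of Dnmt3b and Uhrf2, of 10.8 and 7.20 kb, lay within 5 kb of the starts without covering them. The same held for the domains of Tet3 in both lists. Uhrf1 itself was unmarked by H3K27me3 in both lists and carried H3K4me3 in both.

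Clustered gene families differed in the share that was kept, and for some this share moved when chromosomes 8 and 11 were left out. Of all WT-marked promoters 49.9% were kept, and 46.0% without these chromosomes, and the shares of olfactory receptors and Zfp genes were close to that. Olfactory receptors, the odorant receptor genes in large clusters, were kept at 263 of 557 (47.2%), and at 41.6% without chromosomes 8 and 11. Vomeronasal receptors were kept at 37 of 104 (35.6%) and cytochrome P450 genes at 19 of 57 (33.3%). Members of 1 cluster went different ways, since Olfr1000 and Olfr1002 were lost and Olfr1006 and Olfr1008 kept in the same WT domain of 154.8 kb, and the KO domain of 79.2 kb that covered the kept pair extended to Olfr1009, which gained the mark. Keratins and keratin-associated proteins were kept at 53 of 60 (88.3%), and at 17 of 24 (70.8%) outside chromosomes 8 and 11. Defensins changed from 24 of 41 (58.5%) to 3 of 14 (21.4%) when chromosome 8 and 11 genes were left out. Potassium channels were kept at 50 of 71 (70.4%), including Kcna1 and Kcna2. Zinc finger genes named Zfp were kept at 44 of 94 (46.8%), and of 79 ribosomal protein genes 3 were marked in WT, Rpl30, Rpl37a and Rps15, all lost, and Rpl26 gained the mark. At each of these ribosomal protein genes the domain lay within 5 kb of the start without covering it.

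Domains of the highest counts lay at genes of mixed kinds, and most of these genes were called through the 5 kb window, with the start outside the domain. Lost genes with the highest WT counts were Nwd1, with 33.4 reads per bin, Zfp322a, Tjap1, Lnp, Vmn1r79 and Spsb1, with 19.3. The WT domain near Lnp was 252.0 kb long, ended short of the gene and held the HoxD cluster, whose 9 genes kept the mark. Gained genes with the highest KO counts were Atp5g1, a subunit of ATP synthase, B930036N10Rik, Refbp2, Scrn2, Vmn1r113 and Cnnm4. The KO domain near Atp5g1, of 676.8 kb with 12.9 reads per bin, held the HoxB cluster and did not reach Atp5g1 itself. Kept genes that ranked highest in both lists were 4930468A15Rik, Eif4enif1, Sfi1, Gm17379, Gm10354 and Speer4c. The first had 91.2 reads per bin in WT and 39.7 in KO. Speer4c and Gm10354 have near-identical copies, and reads of copies cannot be placed uniquely, so these values are uncertain.

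H3K4me3 was less frequent at promoters with H3K27me3 than at unmarked ones, and about as frequent at kept as at lost promoters. It was present in WT at 59.3% of kept and 58.4% of lost promoters, a difference of 0.87 points (-1.37 to 3.11). It was present at 53.8% of gained promoters and at 70.6% of those unmarked in both. The KO values were 58.6%, 57.0%, 53.6% and 70.5%, in the same order. Loss of H3K27me3 was not accompanied by many changes of H3K4me3: 126 of 3719 lost promoters carried H3K4me3 in WT alone (3.39%) and 73 in KO alone (1.963%), where kept promoters gave 4.20% and 3.50%. The difference between kept and lost depended on the definition. It was 6.97 points when at least 50% of the promoter window had to be covered, 4.83 points without chromosomes 8 and 11, and -10.3 points among domains at or above the median count of their list.

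CpG content of kept and lost promoters was also alike in the main definition. The observed to expected ratio of CpG in the 300 bp promoter had a median of 0.45 in kept, 0.42 in lost, 0.37 in gained and 0.60 in unmarked promoters. CpG-rich promoters, those at or above the median of all genes (0.53), made up 42.6% of kept and 42.1% of lost promoters, a difference of 0.53 points (-1.71 to 2.78). Over 10 equal groups of WT-marked promoters by this ratio, the kept share lay between 46.7% and 54.6%. Within 5 equal groups by WT domain length, CpG-rich promoters were kept more often in all but the shortest, by 8.44 to 9.26 points. In the shortest the difference was -0.81 points (-5.35 to 3.64). Within 5 groups by count it was -11.8 points (-16.7 to -6.80) in the fourth, and the intervals of the others included 0. Among WT-marked promoters without H3K4me3, CpG-rich ones were kept more often, at 59.6% of 267 against 48.4% of 2789, a difference of 11.1 points (4.85 to 17.1). With H3K4me3 the difference was -2.69 points (-5.80 to 0.44). The share of CpG-rich promoters, kept minus lost, was 7.03 points when at least 50% of the promoter window had to be covered, 3.79 points without chromosomes 8 and 11, and -9.28 points between lists of equal number.

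**Figure D4:**
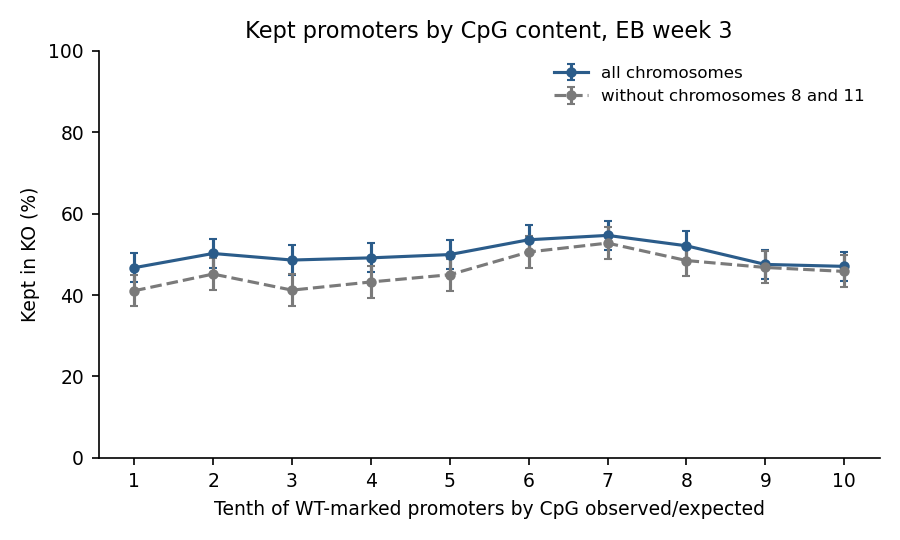
Share (%) of WT-marked promoters kept in KO over 10 equal groups by observed to expected CpG, with 95% Wilson intervals, for all chromosomes (blue) and without chromosomes 8 and 11 (grey). The blue points lie between 46.7% and 54.6% with no steady trend, and the grey points between 41.0% and 52.8%.

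Kept promoters had carried H3K27me3 earlier, in both genotypes, more often than lost ones. In WT mESC 88.9% of promoters kept at week 3 and 58.7% of those lost were marked, a difference of 30.2 points (28.3 to 32.1). In WT EBs kept promoters exceeded lost ones by 29.0 points at week 1 and by 26.8 points at week 2. In KO EBs the excess was 36.6 points at week 1 and 47.6 points at week 2 (45.6 to 49.5), where 82.0% of kept and 34.4% of lost promoters were marked. The libraries of earlier stages were not used to define the classes. Of the lost promoters, 1262 (33.9%) were marked in WT but not in KO already at week 2, and 664 (17.9%) were marked in both genotypes then. Loss at week 3 thus included promoters that the KO list of week 2 still held, 34.4% of them in all.

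Most gained promoters had been marked at an earlier stage, as had most lost promoters. Of 645 gained promoters, 462 (71.6%) had been marked in WT at 1 or more earlier stages and 384 (59.5%) in KO. At no earlier stage of either genotype were 71 (11.01%, 8.82 to 13.7) marked. Of the 3719 lost promoters, 82.5% had been marked earlier in WT, 47.0% in KO and 11.4% in neither. For promoters unmarked at week 3 these shares were not computed. In KO week 2 46.8% of gained promoters were marked and in WT week 2 35.3%, against 5.36% and 11.2% of promoters unmarked at week 3. Without chromosomes 8 and 11 the gained promoters were marked at 41.4% in KO and 41.6% in WT at week 2, and the excess in KO was gone. Gained promoters were marked more often than lost ones in KO at week 2, by 12.4 points (8.28 to 16.5), and less often in WT, by -16.4 points (-20.4 to -12.3). Without these chromosomes the difference in KO was 6.66 points (2.03 to 11.4) at week 2, and at week 1 it turned from 8.63 to -1.13 points (-5.26 to 3.32). Pcgf5 was marked in KO at week 2 and in no other earlier list, and Atp5g1 in KO at weeks 1 and 2 and in no earlier WT list.

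**Figure D5:**
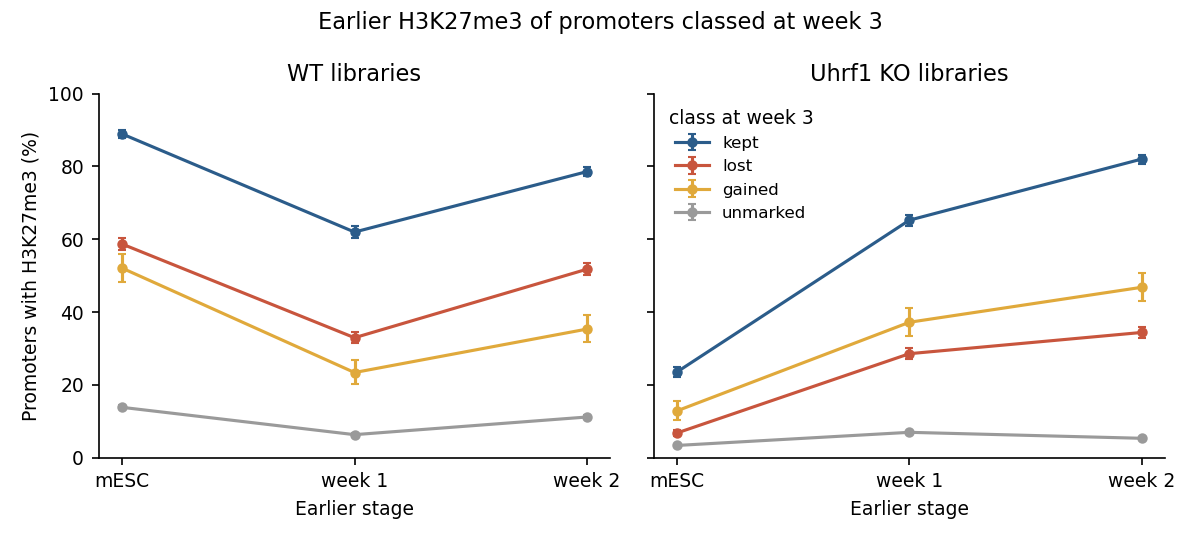
Share (%) of promoters with H3K27me3 in mESC and at weeks 1 and 2 in WT (left) and Uhrf1 KO (right) libraries, for promoters classed at week 3 as kept, lost, gained or unmarked, with 95% Wilson intervals. At week 2, kept promoters reach 78.6% in WT and 82.0% in KO, lost promoters 51.8% and 34.4%, and gained promoters 35.3% and 46.8%.

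Marks of heterochromatin in stem cells gave smaller differences. H3K9me3 domains of WT mESC lay within 5 kb of 53.2% of kept, 43.3% of lost, 45.6% of gained and 19.3% of unmarked promoters, and the difference of kept minus lost, 9.89 points, was 3.78 points without chromosomes 8 and 11. In bases they covered 61.3% of shared, 52.2% of WT-only and 57.5% of KO-only H3K27me3, but without chromosomes 8 and 11 the values were 46.3%, 47.9% and 53.1%, and the excess of shared over WT-only bases was gone. In KO mESC, H3K9me3 covered 63.0% of KO-only, 49.8% of shared and 45.1% of WT-only bases, and without chromosomes 8 and 11 57.5%, 45.1% and 44.8%. Uhrf1 regions of WT mESC touched 5.63% of kept and 4.46% of lost promoters, a difference of 1.17 points (0.173 to 2.17), and 6.77% of unmarked ones. They covered 4.05% of shared, 4.39% of WT-only, 4.51% of KO-only and 5.90% of unmarked bases.

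Compared with earlier stages, the week 3 lists had the highest share of KO domains that overlapped a WT domain by at least 1 bp. Counted in bases, week 3 and mESC were close, with 74.7% and 72.8% of KO bases in WT domains. At week 3 88.0% of KO domains overlapped a WT domain, 11.7 points more than in mESC (8.55 to 15.1), 36.6 points more than at week 1 (35.0 to 38.2) and 12.5 points more than at week 2 (10.9 to 14.2). The share of WT-marked promoters that were kept was 49.9% at week 3, 48.8% at week 2, 72.3% at week 1 and 15.5% in mESC, so weeks 2 and 3 differed by 1.13 points (-0.522 to 2.78). At week 2, 2135 promoters were marked in KO alone, against 645 at week 3. The lists differed much in size between stages. In mESC and at weeks 1, 2 and 3, WT domains covered 37.5%, 3.96%, 45.5% and 30.9% of known bases and KO domains 3.29%, 7.04%, 18.2% and 16.4%. The KO mESC list held 722 domains with a median count of 0.91 per bin. The part of list size in the shares of each stage was not tested. Of the neural, mesodermal and endodermal factors together, 58 of 61 WT-marked genes were kept at week 3, 58 of 58 at week 2, 55 of 56 at week 1 and 24 of 61 in mESC, while all 39 Hox genes were kept at each stage.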

How the data were processed

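ChIP-seq reads of WT and Uhrf1 KO EBs at week 3 were mapped by the authors to mm9 with Bowtie2 2.1.0, and H3K27me3 domains were called in each library against input with RSEG, without pooling. Every deposited domain carries 2 values by the authors, a signal (the mean number of reads in its bins of 1800 bp) and a score that rises with its length. The study states that read counts were scaled to mapped reads, but whether this covers these values is not given in the sources used here, so both were used only to rank within a list. The signal was taken as the fifth column of the files, and the score served as an alternative. Deposited lists of earlier stages and of other marks were used for comparison. The 8 inputs and the transcription factor summits were not used here.

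Overlaps were computed with Python 3.11.15, numpy 2.4.6, pandas 2.3.3 and scipy 1.17.1. Figures were drawn with matplotlib 3.10.9. An overlap needed 1 bp. Promoter windows reached 5 kb (H3K27me3) or 2 kb (H3K4me3) from each annotated start of 22367 coding genes of GENCODE on NCBIM37, in both directions. Overlap code was tested on simulated data. Samples were grouped by GEO's labels, and with 1 library per group no test across replicates was made. Members and gene lists were chosen with earlier results of these data known. Named were the 3 longest and the 3 highest-count domains of each class, the 6 genes in the highest-count domains of each promoter class, all 12 genes the study picked, and from each list of more than 12 genes the first 4 in each outcome. Marker genes, counts of 5 or fewer and single members could be named besides. Alternatives were at least 50% coverage, shares of base pairs, domains at or above the median count, lists of equal number, gaps of 1 bin joined, promoter windows of 2 kb or covered to at least 50%, H3K4me3 windows of 1 kb and an upper-quartile CpG limit. Leaving out chromosomes 8 and 11, and the score in place of the count, were added after the data were seen.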

Additional observations from a re-analysis of the deposited data

Results flagged for a closer look

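The covered length of H3K27me3 moved in opposite directions at weeks 3 and 1. The log2 ratio of KO to WT covered length was -0.91 at week 3 (791.4 Mb in WT and 419.9 Mb in KO) and 0.83 at week 1 (101.3 Mb and 180.1 Mb). The log2 ratio of the number of marked promoters was -0.77 at week 3 and 0.04 at week 1. Each value is from 1 library per genotype, and the difference between the stages was not tested. The median domain length at week 1 was 8.75 kb in WT and 16.2 kb in KO, with bins of 1750 and 1800 bp, against 46.8 and 72.0 kb at week 3.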

How the results depend on the processing

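The reported shares rest on 1 library per genotype, and no paired analysis was possible because each group had 1 sample. None of the 8 results changed to the opposite of a called direction, and 35 of 47 alternatives moved a value beyond its interval. The cause of these moves was not tested, except that stricter definitions leave fewer domains. With at least 50% of a domain covered, 27.1% of WT and 71.2% of KO domains were shared, retention of the longest minus the shortest of 5 groups was 26.4 points (53.2 points as reported), and the week 2 overlap of shared minus WT-only domains was 8.89 points (18.3). Counted in base pairs, 39.6% of WT and 74.7% of KO was shared.

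With domains at or above the median count of their list, 23.4% of WT and 58.7% of KO domains were shared, 36.2% of WT-marked promoters kept and 3.19% of the others gained. The H3K4me3 difference was then -10.3, the length difference 42.3, the week 2 overlap difference 34.2 and the CpG difference 3.08 points. With lists of equal number, these values were 41.4% and 42.2% shared, 60.2% kept and 11.4% gained, and -10.5, 74.9, 30.5 and -9.28 points in the same order. The equal lists hold the WT domains of highest count, which are short, so that the number and the kind of domains changed together. The H3K4me3 and CpG differences took either sign.

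With promoter windows of 2 kb the H3K4me3 difference was 3.12 and the CpG difference 3.08 points, and with at least 50% of the window covered they were 6.97 and 7.03 points and 52.5% of promoters were kept. With CpG-rich promoters taken from the upper quartile the CpG difference was -2.38 points. Leaving out chromosomes 8 and 11, chosen after seeing the data, gave 34.9% of WT domains shared, 46.0% of promoters kept, 3.55% gained, and differences of 4.83 points for H3K4me3 and 3.79 points for CpG. Ranking by the score, also chosen after seeing the data, gave 46.9% kept and 3.59% gained. Joining gaps of 1 bin left every value and interval identical, so it could not show whether the results depend on gaps. Its results are among the 12 of 47 alternatives that stayed within the interval. The lists themselves hold no depth, and by the study's sequencing summary the WT library had more mapped reads than the KO library. A domain missing from the KO list may therefore lie under its detection limit, which was not tested.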

Other observations

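Markers of differentiated cells outside the developmental lists changed in both directions. Afp, a protein of fetal liver and yolk sac, and Tnnt2, a troponin of heart muscle, gained H3K27me3 in KO, while Myh6 and Actc1, genes of contracting heart muscle, and Ptprc, a surface protein of white blood cells, lost it. Of these 5 genes, Afp alone carried H3K4me3 in either genotype, in KO. Tal1, a factor of blood formation, kept H3K27me3 and carried H3K4me3 in both. Each is 1 gene in 1 library per genotype.

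The X chromosome was covered to 7.00% by H3K27me3 in WT mESC, to 0.360% in WT EBs at week 1, to 7.65% at week 2 and to 0.530% at week 3. H3K4me3 covered 2.06%, 1.30%, 1.97% and 1.55% of it in the same cells.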
